A study of Mus musculus with 12 samples.

Results

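The Slc25 genes encode the mitochondrial carriers, small proteins that span the inner mitochondrial membrane and exchange nucleotides, phosphate, amino acids, organic acids and cofactors between the matrix and the cytosol. Of the 11385 genes in the count table, 32 had a symbol made of Slc25a and a number, and 31 of them are described here. The excluded member, Slc25a46, sits in the outer membrane and acts in mitochondrial shape. Of 39 members assigned to a transport role, 10 were not in the table and were not analysed here, among them Slc25a24 and Slc25a37. Each of the 31 had between 5 and 4164 counts in every library, and 30 had at least 10 counts in all 12.

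RNA came from germinal-vesicle oocytes, which rest in meiotic prophase inside the growing follicle, taken from unprimed C57BL/6J mice of 21 to 23 days after their cumulus cells had been stripped off. The 4 groups were WT, Mfn1-/- (no mitofusin 1), Mfn2-/- (no mitofusin 2) and Mfn1&2-/- (neither), each with n = 3 pools of 50 oocytes. Mitofusins are outer-membrane GTPases that join mitochondria to one another. The labels name no Cre driver, promoter or breeding scheme for the deletions, and no separate animals or litters for the pools of a group, so the p-values below cover the variation among these pools, which may be technical.

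Carriers are encoded in the nucleus, made in the cytosol and inserted into the inner membrane by a dedicated import route. The best known are the adenine nucleotide translocases, which trade matrix ATP for cytosolic ADP, and the phosphate carrier, which supplies phosphate to ATP synthase. Mouse oocytes at this stage rely on mitochondrial oxidation of pyruvate for ATP and use little glucose, so exchange across the inner membrane is central to their metabolism.

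Libraries held 11575357 to 16024893 counts. Mfn1 stood at 280 ± 16.4 CPM (read counts scaled to library size with TMM factors; mean ± SD, n = 3) in WT, at 18.1 ± 0.696 in Mfn1-/- and at 20.1 ± 5.87 in Mfn1&2-/-. Mfn2 stood at 76.3 ± 9.75 CPM in WT, at 11.2 ± 2.19 in Mfn2-/- and at 10.8 ± 1.31 in Mfn1&2-/-. All 12 oocyte markers had counts in each library, with a summed level of 12930 to 18330 CPM, and 9 of the 12 had their highest value in an Mfn2-/- pool. The 10 measured granulosa markers summed to 440.5 to 541 CPM in 11 libraries and to 878.1 CPM in WT replicate 3, where 7 of the 10 had their highest value and where the oocyte sum was lowest. These are relative levels in bulk RNA, so fewer cells of a type and less RNA per cell cannot be told apart.

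The promoters of 3 of the carriers that passed the test in a comparison are shown because their transcript values follow; RefSeq promoters (GRCm38.p6) were matched for 25 of the 31 members, and Slc25a35 is named only. Each line gives the 250 bases before a start site, 5′ to 3′ on the gene's strand, and capitals mark the E-box CACGTG, the only motif of those searched that was found in these 4 windows.
Slc25a15, distal start, chr8:22398622-22398871 (minus strand): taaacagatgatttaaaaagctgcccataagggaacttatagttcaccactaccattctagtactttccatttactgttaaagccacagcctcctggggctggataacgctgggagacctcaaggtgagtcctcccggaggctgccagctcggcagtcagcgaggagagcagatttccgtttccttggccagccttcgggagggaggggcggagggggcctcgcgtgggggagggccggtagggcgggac
Slc25a15, proximal start, chr8:22398278-22398527 (minus strand): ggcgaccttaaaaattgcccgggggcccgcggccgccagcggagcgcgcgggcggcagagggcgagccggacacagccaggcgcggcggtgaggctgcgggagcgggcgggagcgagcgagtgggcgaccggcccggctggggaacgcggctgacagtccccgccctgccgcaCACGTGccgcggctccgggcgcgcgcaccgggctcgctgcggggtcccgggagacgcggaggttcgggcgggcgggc
Slc25a38, chr9:120110132-120110381 (plus strand): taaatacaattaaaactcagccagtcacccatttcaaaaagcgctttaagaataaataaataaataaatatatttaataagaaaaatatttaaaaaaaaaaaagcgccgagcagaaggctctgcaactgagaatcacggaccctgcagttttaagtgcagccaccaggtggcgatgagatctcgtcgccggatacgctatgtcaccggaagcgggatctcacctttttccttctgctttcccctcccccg
Slc25a17, chr15:81360766-81361015 (minus strand): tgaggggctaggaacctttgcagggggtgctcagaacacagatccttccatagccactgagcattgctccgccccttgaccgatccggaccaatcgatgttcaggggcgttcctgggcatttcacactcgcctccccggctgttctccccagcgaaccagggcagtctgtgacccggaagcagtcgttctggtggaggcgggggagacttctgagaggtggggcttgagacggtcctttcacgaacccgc

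The windows differed widely in composition. The proximal Slc25a15 window was 80.4% G and C with 43 CpG dinucleotides, against 57.6% and 11 CpG for its distal window. The Slc25a17 window stood at 61.2% with 14 CpG, and that of Slc25a38 had the lowest share of the 33 member windows, at 41.6% with 12 CpG. CACGTG, which reads the same on both strands, lay in 8 of 33 member windows (24.2%) and in 6.02% of 32851 windows of all genes. Median GC content was 57.2% in member windows and 52.4% in all windows, so the shares are not matched for composition. The 8 windows belong to 7 genes, since 2 are overlapping windows of Slc25a14, where a site can be counted more than once. TCAAGGTCA, the motif of oestrogen-related receptors, was searched on both strands and was in 0 member windows and in 0.387% of all windows. TGATGNAA, which ATF4 binds, was in 0 member windows and in 3.45% of all on either strand. The full NRF1 motif was in 0 member windows and in 0.782% of all. GCATGCGC, its core letters, was in 1 member window, that of Slc25a31, and in 2.26% of all on either strand.

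In WT oocytes the carriers were unequally expressed, and 3 of them stood together at the top. Levels between genes are given as CPM per kb of annotated exon. Slc25a15, which brings ornithine into the matrix for the urea cycle and ornithine breakdown and is known as ORNT1, stood at 38, 36.1 and 36.3 CPM per kb in WT replicates 1, 2 and 3. That mean of 36.8 ± 1.03 CPM per kb (SD, n = 3) exceeded the level of 88.7% of genes with a known length. Slc25a5, the adenine nucleotide translocase of growing cells (ANT2), stood at 29.2, 35.6 and 44 CPM per kb, and Slc25a48, whose substrate is less certain, at 29.6, 40.7 and 37.6. The ranges of these 3 overlapped, so their order is not resolved, and together they made up 40.3% of the summed carrier level per kb. With the longest annotated transcript as the length, Slc25a5 came first and Slc25a17 took the place of Slc25a48 among the 3 highest. Without WT replicate 1, Slc25a5 also came first and Slc25a15 stood below Slc25a48.

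Slc25a17, the peroxisomal carrier of coenzyme A and related nucleotides, followed at 26 ± 1.27 CPM per kb. Its lowest pool (24.5) lay above every pool of every lower carrier, and its highest (26.8) below the lowest pool of Slc25a48. Slc25a4, the translocase of heart and muscle (ANT1), stood at 14.8 ± 1.59 CPM per kb. Slc25a31, a translocase best known from male germ cells (ANT4), stood at 13.3 ± 1.23, and Slc25a44, a carrier of branched-chain amino acids, at 11.6 ± 0.677. Slc25a4 and Slc25a31 overlapped in range, as did Slc25a31 and Slc25a44, and Slc25a44 lay above every lower carrier in all 3 pools. Slc25a1, the citrate carrier, stood at 7.67 ± 1.08 CPM per kb, and Slc25a32, which carries folate or FAD, at 7.41 ± 0.905. The 10 highest carriers of the 31 held 76.2% of the summed level per kb.

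**Figure D1:**
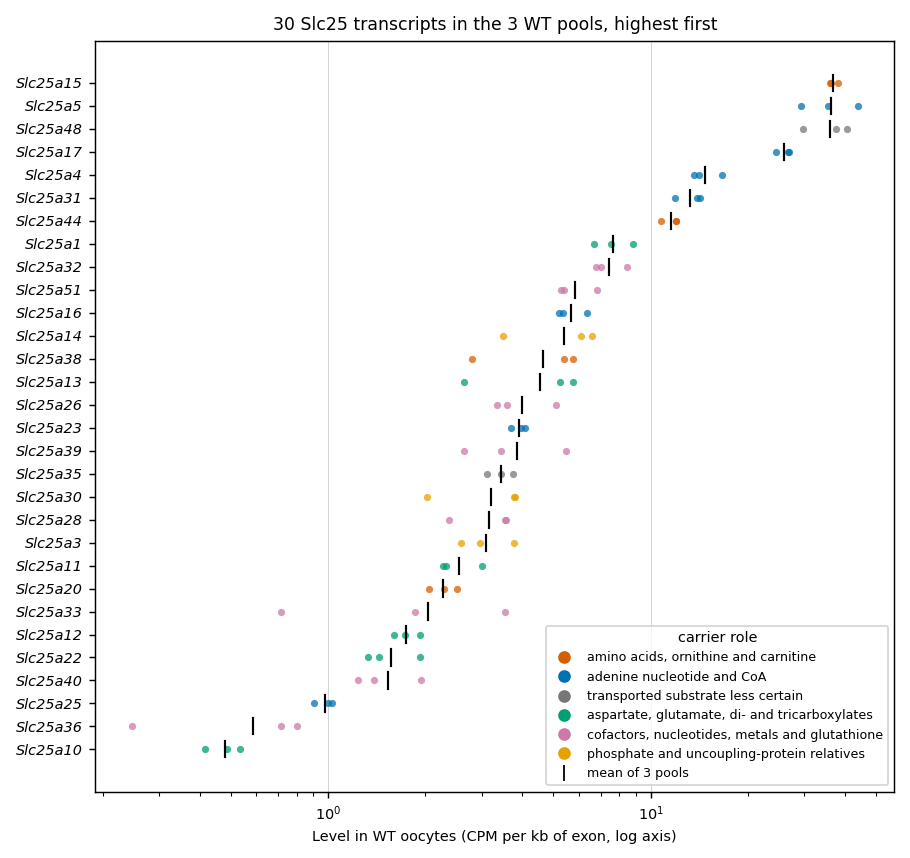
Level of 30 of the 31 Slc25 transcripts in the 3 WT pools, in CPM per kb of exon on a log axis, ordered by mean. Points are pools coloured by carrier role and black ticks are means; Slc25a15, Slc25a5 and Slc25a48 lead at about the same level, Slc25a17 follows, and Slc25a10 is lowest at 0.479.

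The phosphate carrier and several carriers of aspartate, glutamate and dicarboxylates stood lower in this order. Slc25a3, the phosphate carrier, stood at 3.1 ± 0.601 CPM per kb, at rank 22 by this measure. Its annotated exons cover 5550 bp and its longest annotated transcript 4039 bp, so levels per kb and ranks depend on the length used. The aspartate-glutamate carriers of the malate-aspartate shuttle, Slc25a12 (aralar) and Slc25a13 (citrin), stood at 1.75 ± 0.162 and 4.54 ± 1.65, and the oxoglutarate carrier Slc25a11, the other arm of that shuttle, at 2.54 ± 0.415. The glutamate carrier Slc25a22 stood at 1.57 ± 0.318 CPM per kb, and the dicarboxylate carrier Slc25a10 was lowest of the 31 at 0.479 ± 0.0584. Reads may be shared with copies: 7 annotated pseudogenes matched Slc25a5 at 90% identity or more over at least 500 bp, as did 1 each for Slc25a3, Slc25a36, Slc25a40 and Slc25a51. No source used here says how reads matching several places were treated, so the levels of these 5 carriers are uncertain.

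By role, the 7 carriers of adenine nucleotides and coenzyme A took 37.2% ± 2.37 (SD, n = 3) of the summed level per kb in WT. The 4 carriers of amino acids, ornithine and carnitine took 20.4% ± 1.43, and the 9 carriers of cofactors, nucleotides, metals and glutathione 16.6% ± 1.49. The 6 carriers of aspartate, glutamate, di- and tricarboxylates took 6.85% ± 0.331, and the phosphate carrier with its 2 uncoupling-protein relatives 4.33% ± 0.872. In the knockouts the share of cofactor, nucleotide, metal and glutathione carriers was 17% ± 1.9 in Mfn1-/-, 13.7% ± 1.38 in Mfn2-/- and 15.8% ± 0.428 in Mfn1&2-/-. The adenine nucleotide and coenzyme A share was 36.5% ± 0.281 in Mfn1-/-, 36.5% ± 1.92 in Mfn2-/- and 34.6% ± 0.72 in Mfn1&2-/-.

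The summed transcript level of the 31 carriers was 963.1, 986.5 and 973.5 CPM in the WT pools. It was 1107, 1044 and 1048 CPM in Mfn1-/-, 1146, 1098 and 1097 in Mfn2-/-, and 1031, 1014 and 1028 in Mfn1&2-/-. Every knockout pool lay above every WT pool, and every Mfn2-/- pool above every Mfn1&2-/- pool. Without Slc25a15, the sum was 767.3 ± 17.1 CPM in WT, 809.8 ± 30.7 in Mfn1-/-, 848.5 ± 28 in Mfn2-/- and 794.5 ± 17.1 in Mfn1&2-/- (SD, n = 3 each). Then the WT pools (749.4, 783.6 and 769 CPM) overlapped with those of Mfn1-/- (843.4, 783.2 and 802.8) and of Mfn1&2-/- (809.9, 776.1 and 797.4), and still lay below all Mfn2-/- pools, the lowest of which was 822.8.

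**Figure D2:**
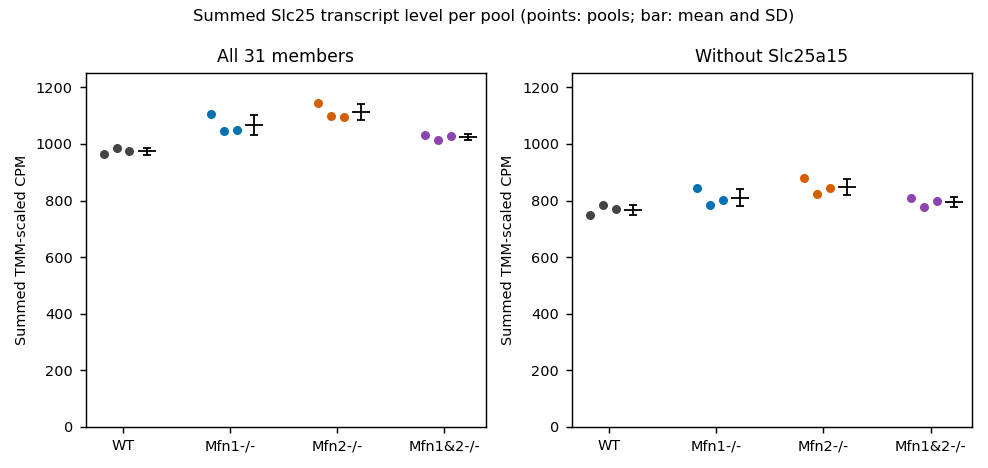
Summed TMM-scaled CPM of the 31 Slc25 transcripts per pool (left) and without Slc25a15 (right), with points for pools and bars for mean and SD. On the left the WT pools, up to 986.5 CPM, lie below every knockout pool; on the right they overlap with Mfn1-/- and Mfn1&2-/- pools.

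Loss of mitofusin 1 alone changed no carrier by the test used. By edgeR's quasi-likelihood test with Benjamini-Hochberg adjustment over all genes, 0 of 31 carriers passed an adjusted p of 0.05 in Mfn1-/- against WT, where 0.228% of all genes did (0.0703% higher and 0.158% lower). At an unadjusted p below 0.05 there were 3, all higher, or 9.68% of members against 12.8% of all genes, and DESeq2 called 1, Slc25a15, while it called 1.97% of all genes. The median log2 fold change of the members was 0.08, against -0.01 for all genes. For 25 of 31 members the 95% interval of the fold change lay within a 2-fold change either way.

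Slc25a15 stood at 214, 203 and 205 CPM in the WT pools and at 263, 261 and 245 CPM in Mfn1-/-. The groups did not overlap (log2 fold change 0.31 ± 0.08, standard error; edgeR adjusted p = 0.114). Slc25a40, one of a pair of close relatives tied to glutathione import into mitochondria, stood at 16.3, 11.6 and 10.4 CPM in WT and at 19.5, 26.3 and 18.2 in Mfn1-/- (0.74 ± 0.23; edgeR adjusted p = 0.193), also without overlap. Its relative Slc25a39 stood at 0.38 ± 0.28 on the log2 scale. Slc25a38, the glycine carrier that heme synthesis depends on, stood at 0.56 ± 0.25 (edgeR adjusted p = 0.36), or at 0.30 without WT replicate 3, and Slc25a4 at 0.39 ± 0.19 (edgeR adjusted p = 0.415). In all, 5 members lay higher and 1 lower without overlap, 19.4% of members against 18.1% of all genes (9.28% higher and 8.84% lower).

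With mitofusin 2 alone lost, 3 carriers were higher and none lower by the test used, and 1 of the 3, Slc25a15, held in each other fit tried. In Mfn2-/- against WT, edgeR's quasi-likelihood test called Slc25a15, Slc25a38 and Slc25a35 higher and 0 members lower, 9.68% of the 31, while 11.4% of all genes were called (4.52% higher and 6.87% lower). The members' share rests on 3 calls, all higher, and its difference from the shares of all genes was not tested. Only 1 member was called when only these 2 groups were fitted or any Mfn2-/- pool or WT replicate 3 was left out. Of the 31 log2 fold changes, 23 were above 0, or 74.2% against 51.5% of all genes, with a median of 0.15 against 0.01. No member changed by more than 2-fold, and 23 of 31 intervals lay within a 2-fold change either way. Without overlap, 9 members lay higher and 2 lower, 35.5% of members against 32% of all genes (16.1% higher and 15.9% lower).

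Slc25a15 stood at 268, 275 and 252 CPM in the Mfn2-/- pools against 203 to 214 CPM in WT. Each of the 3 knockout pools lay above each WT pool, by a modest and tightly measured amount (0.36 ± 0.08, or 1.28-fold, 95% interval 0.19 to 0.52 on the log2 scale; edgeR adjusted p = 0.00935). Its standard error was smaller than that of all but 0.4% of genes. The call was kept in the 7 other settings that changed the fit and without each of the 12 libraries.

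Slc25a38 stood at 14.8, 15.9 and 7.68 CPM in WT and at 28, 22.6 and 20.4 CPM in Mfn2-/- (0.89 ± 0.25, 1.85-fold; edgeR adjusted p = 0.0315). The groups did not overlap, but WT replicate 3, the pool with more granulosa transcripts, was the low one. Without WT replicate 3 the log2 fold change was 0.63 (edgeR adjusted p = 0.102). The call was also lost without Mfn2-/- replicate 1, 2 or 3 (adjusted p = 0.114, 0.0676 and 0.0514) and when only these 2 groups were fitted (0.0593). Whether granulosa RNA has a part in the low WT value was not tested.

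Slc25a35, a carrier whose substrate is less certain, stood at 11.4, 12.7 and 13.8 CPM in WT and at 18.8, 20.3 and 18.2 CPM in Mfn2-/- (0.60 ± 0.18, 1.51-fold; edgeR adjusted p = 0.0444). All 3 knockout pools lay above all WT pools. The call sat at the threshold: it was lost without 11 of the 12 libraries taken singly, with adjusted p between 0.0508 and 0.135 there, and was kept without Mfn1&2-/- replicate 1. It was also lost with limma-voom (adjusted p = 0.0514), with the replicate block (0.0693) and with only the groups compared (0.0787). Of its exon length, 31.3% overlaps Rangrf on the opposite strand, a gene of nuclear transport. No source used here says whether strand was used in counting, so reads of the pair may not be separable. Rangrf stood at 5.73 CPM in WT and changed by 0.12 ± 0.31 on the log2 scale in Mfn2-/-.

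Several other carriers stood above WT in Mfn2-/- without passing the test. Slc25a16, linked to coenzyme A in mitochondria, stood at 25.7, 30.5 and 25.1 CPM in WT and at 46, 32.2 and 34.1 in Mfn2-/- (0.47 ± 0.16; edgeR adjusted p = 0.0782). Slc25a30, a relative of the uncoupling proteins, had a value of 0.76 ± 0.29 (edgeR adjusted p = 0.102), and its relative Slc25a14 one of 0.46 ± 0.35. WT replicate 3, the pool with more granulosa transcripts, was the low one for both. Slc25a30 stood at 17.4, 17.3 and 9.27 CPM in WT, and Slc25a14 at 15.6, 14.3 and 8.27. Slc25a31 had 0.42 ± 0.18 (edgeR adjusted p = 0.134). Their groups, except those of Slc25a14, did not overlap. By role, all 4 carriers of amino acids, ornithine and carnitine had positive values (median 0.22, 2 called), as did all 3 of the phosphate and uncoupling-protein group (median 0.46, 0 called). Of the 9 carriers of cofactors, nucleotides, metals and glutathione, 5 had positive and 4 negative values (median 0.05, 0 called). The 7 carriers of adenine nucleotides and coenzyme A had 5 positive and 2 negative values (0 called). The 6 of aspartate, glutamate, di- and tricarboxylates had 4 and 2 (0 called). Of the 12 oocyte markers, 4 were called higher in Mfn2-/- and 0 lower, where 4.52% of all genes were called higher. The called markers were Bmp15 (0.50 ± 0.08), Ooep (0.61 ± 0.14), Oosp1 (0.54 ± 0.10) and Zp1 (0.41 ± 0.13). Zp3 (-0.04 ± 0.14), Zar1 (-0.02 ± 0.10) and Npm2 (-0.07 ± 0.12) had values slightly below 0. Of the 10 granulosa markers, 3 were called lower in Mfn2-/-, where 6.87% of all genes were, and 7 of the 10 had their highest value in WT replicate 3. The part of either list in the carriers' values was not tested.

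**Figure D3:**
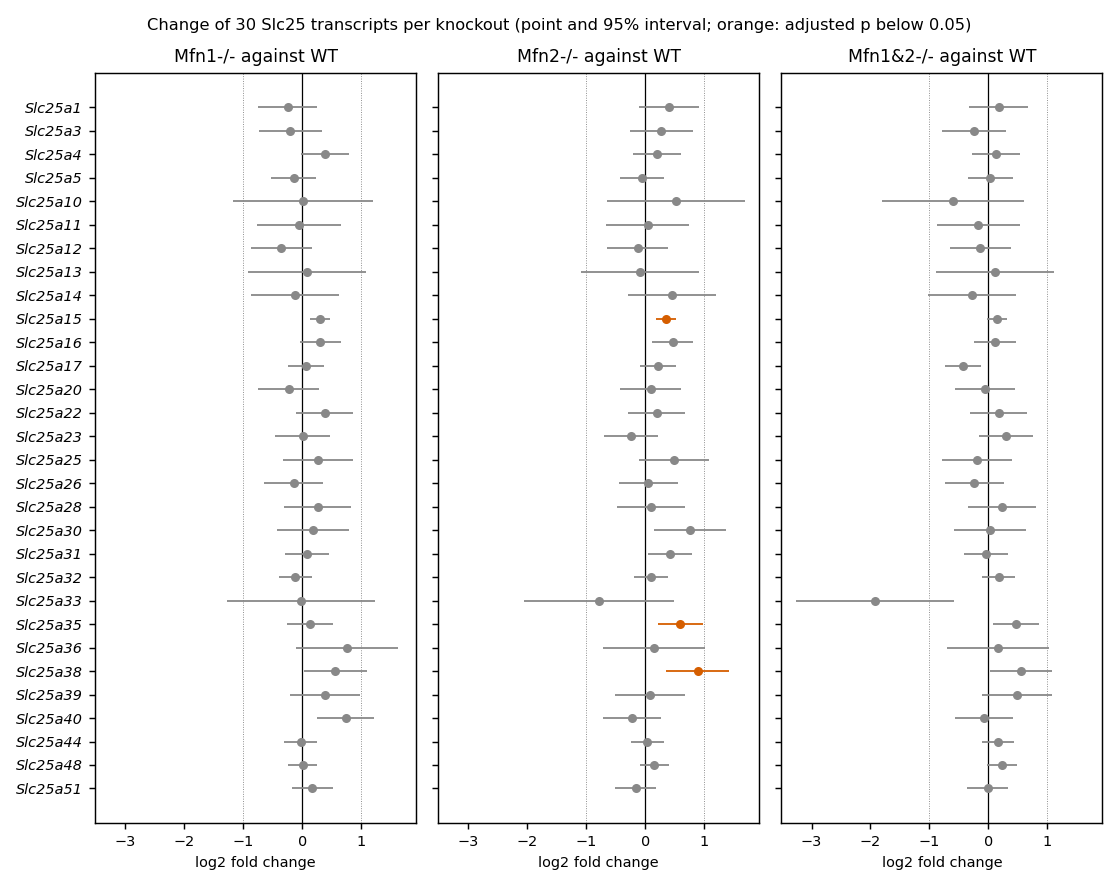
Log2 fold change of 30 of the 31 Slc25 transcripts against WT in the 3 knockouts, with 95% intervals; dotted lines mark a 2-fold change. Orange points passed an adjusted p of 0.05: 0 in Mfn1-/-, 3 in Mfn2-/- (Slc25a15, Slc25a35 and Slc25a38) and 0 in Mfn1&2-/-.

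Loss of both mitofusins changed no carrier against WT by the test used. In Mfn1&2-/-, edgeR's quasi-likelihood test called 0 of 31 carriers, against 4.21% of all genes (2.1% higher and 2.11% lower). Of the 31, 4 had an unadjusted p below 0.05 (12.9% of members, 18.6% of all genes), and DESeq2 called 1, Slc25a33, while it called 7.33% of all genes. The median log2 fold change was 0.04, against 0.00 for all genes, and 24 of 31 intervals lay within a 2-fold change either way. Without overlap, 4 members lay higher and 2 lower (19.4% of members, 22.1% of all genes, of which 11.3% higher and 10.8% lower).

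The 3 carriers called in Mfn2-/- were not called in Mfn1&2-/- against WT. Slc25a15 was at 221, 238 and 230 CPM in Mfn1&2-/-, above all WT pools and below all pools of both other knockouts (0.15 ± 0.08; edgeR adjusted p = 0.333). Slc25a38 stood at 0.56 ± 0.25 (edgeR adjusted p = 0.244), or at 0.29 without WT replicate 3, and Slc25a35 at 0.47 ± 0.18 (edgeR adjusted p = 0.161) on the log2 scale. Slc25a17 stood at -0.42 ± 0.14 (edgeR adjusted p = 0.117), with all its Mfn1&2-/- pools below all WT pools. In the direct comparison of Mfn1&2-/- with Mfn2-/-, edgeR's adjusted p was 0.109 for Slc25a15, 0.432 for Slc25a38 and 0.721 for Slc25a35. The comparisons of the 3 knockouts share their WT pools, so their values are given side by side only.

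The pyrimidine nucleotide carrier Slc25a33 had the lowest value of the 31 in Mfn1&2-/-, -1.92 ± 0.63 on the log2 scale (95% interval -3.27 to -0.58; edgeR adjusted p = 0.105). Its pools stood at 3.51, 1.35 and 6.68 CPM in WT, 5.19, 2.88 and 3.33 in Mfn1-/-, 3.2, 1.66 and 1.81 in Mfn2-/-, and 0.421, 1.51 and 1.06 in Mfn1&2-/-. Without WT replicate 3, the pool with more granulosa transcripts and the highest Slc25a33, the value against WT was -1.26 (edgeR adjusted p = 0.362). WT and Mfn1&2-/- overlapped through the low WT replicate 2, while all Mfn1&2-/- pools lay below all Mfn1-/- pools. The values rest on 140 counts in the WT group and 42 in the Mfn1&2-/- group. Slc25a33 lies on chromosome 4 (149744036 to 149774277), 1.84 Mb from Mfn2, and a part of the targeted chromosome segment in its value was not tested. Of its exon length, 14.9% overlaps the antisense gene Gm13068, so its reads are uncertain where strand was not used. Its relative Slc25a36 stood at 0.16 ± 0.41.

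**Figure D4:**
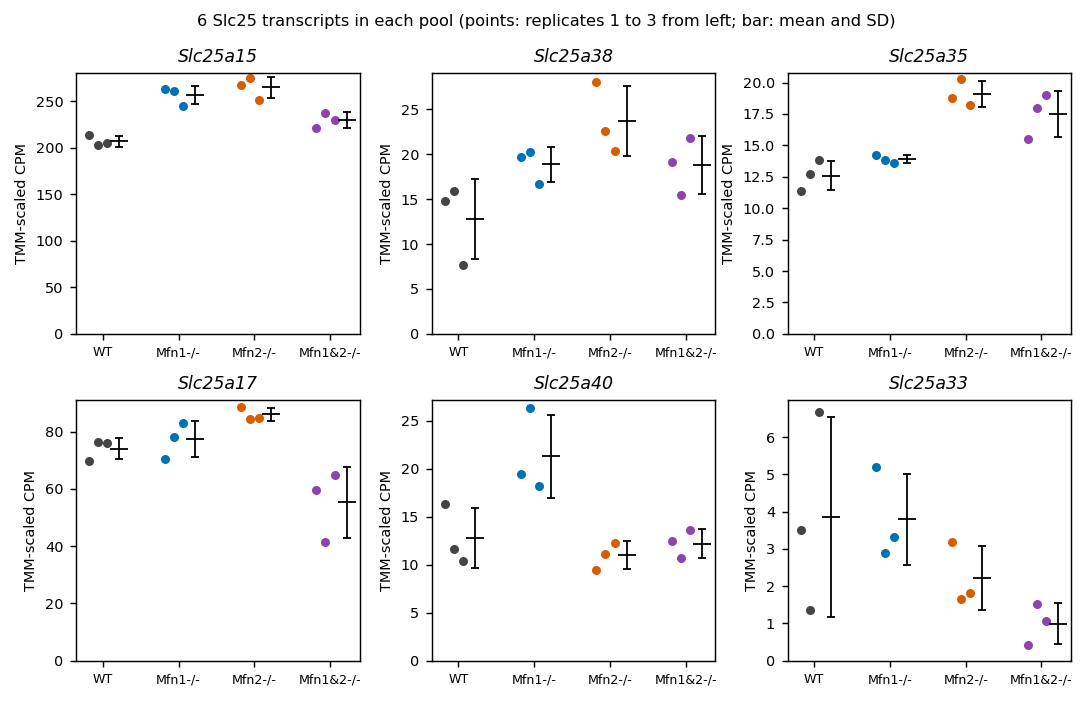
TMM-scaled CPM of 6 Slc25 transcripts in each of the 12 pools, with bars for mean and SD. Slc25a15 is higher in all Mfn1-/- and Mfn2-/- pools than in WT and lies between them in Mfn1&2-/-; Slc25a17 is lowest in Mfn1&2-/-.

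Comparing Mfn1&2-/- with each of the other knockouts asked what the loss of a mitofusin changed where its partner was already lost. Against Mfn1-/-, edgeR's quasi-likelihood test called 0 carriers (5.36% of all genes, 2.76% higher and 2.6% lower), with 4 at an unadjusted p below 0.05 (12.9% of members, 20.7% of all genes) and 3 by DESeq2, which called 9.18% of all genes. Slc25a40 stood at 12.5, 10.7 and 13.6 CPM in Mfn1&2-/- against 18.2 to 26.3 CPM in Mfn1-/- (-0.80 ± 0.23; edgeR adjusted p = 0.0535), with no overlap. Slc25a17 stood at -0.49 ± 0.14 (edgeR adjusted p = 0.0603), Slc25a33 at -1.90 ± 0.63 (edgeR adjusted p = 0.092) and the folate or FAD carrier Slc25a32 at 0.29 ± 0.13 (edgeR adjusted p = 0.232). The member median was -0.12, against 0.01 for all genes. Slc25a40 and Slc25a17 passed with library size as the only scaling, with limma-voom and with DESeq2, which also called Slc25a33, so whether these carriers are called depends on the fit. Without overlap, 4 members lay higher and 5 lower, 29% of members against 26% of all genes (13.2% higher and 12.9% lower).

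Against Mfn2-/-, the peroxisomal carrier Slc25a17 fell. It stood at 88.6, 84.5 and 84.9 CPM in Mfn2-/- and at 59.7, 41.3 and 64.8 CPM in Mfn1&2-/- (-0.64 ± 0.14, 0.642-fold; edgeR adjusted p = 0.0114). All 3 pools of Mfn1&2-/- lay below every other pool of the study, the lowest of which was 69.9 CPM in WT. The call was kept in the 7 other settings that changed the fit and without each of the 12 libraries, with values from -0.77 to -0.47. It was the only one of the 31 called (3.23% of members, 10.2% of all genes, 6.14% higher and 4.08% lower), and 7 had an unadjusted p below 0.05 (22.6% against 25.7%).

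The next smallest p-values were those of Slc25a31 (-0.46 ± 0.18; edgeR adjusted p = 0.105), Slc25a15 (-0.21 ± 0.08; edgeR adjusted p = 0.109) and Slc25a30 (-0.73 ± 0.29; edgeR adjusted p = 0.12). Slc25a31 lies on chromosome 3, 8.13 Mb from Mfn1, and a part of the targeted chromosome segment in its value was not tested. All 3 members of the phosphate and uncoupling-protein group had negative values (median -0.73, 0 called), as did 5 of 6 carriers of aspartate, glutamate, di- and tricarboxylates (median -0.12, 0 called). Of the 9 carriers of cofactors, nucleotides, metals and glutathione, 7 had positive and 2 negative values (median 0.09, 0 called). The calcium-sensitive ATP-magnesium/phosphate carriers had opposite signs and were not called: Slc25a25 at -0.68 ± 0.28 (edgeR adjusted p = 0.136) and Slc25a23 at 0.54 ± 0.22 (edgeR adjusted p = 0.128). The groups of Slc25a23 overlapped, at 16.6, 31.4 and 28.5 CPM in Mfn1&2-/- and 17.4, 16.4 and 18.8 in Mfn2-/-. Without overlap, 7 members lay lower and 1 higher, 25.8% of members against 31.5% of all genes (16% higher and 15.5% lower). Of the 12 oocyte markers, edgeR called 4 lower and 1 higher in the same comparison, against 4.08% of all genes lower and 6.14% higher. The part of these markers in the carriers' values was not tested.

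Mfn2-/- against WT and Mfn1&2-/- against Mfn1-/- share no library, so the effect of Mfn2 loss was measured independently with and without Mfn1. Of the 31 carriers, 7 were higher and 4 lower in both, and 20 had opposite signs, so 35.5% kept their sign against 53.5% of all genes. Across carriers, which share libraries within each contrast, Pearson's r was 0.35 and Spearman's rho -0.04 (n = 31 genes), and over all genes Pearson's r was 0.43. For loss of Mfn1 with and without Mfn2, likewise measured in separate libraries, 54.8% of carriers kept their sign against 49.2% of all genes, with Pearson's r of 0.17 across carriers and 0.01 over all genes. The value for Slc25a38 was 0.89 ± 0.25 with Mfn1 and -0.01 ± 0.25 without it. For Slc25a35 it was 0.60 ± 0.18 and 0.34 ± 0.18.

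The difference between these effects was tested as the interaction of the losses. edgeR's quasi-likelihood test called 1 carrier, Slc25a15 (3.23% of members, 4.13% of all genes, 2.92% higher and 1.2% lower), and 7 had an unadjusted p below 0.05, all with negative values (22.6% of members, 21.1% of all genes). For Slc25a15, loss of Mfn2 gave 0.36 ± 0.08 in the presence of Mfn1. In the absence of Mfn1 it gave -0.16 ± 0.08, which was not called (edgeR adjusted p = 0.265). The difference was -0.51 ± 0.11 (95% interval -0.75 to -0.28, edgeR adjusted p = 0.0209). The call of this difference was lost without Mfn2-/- replicate 2 (-0.49, edgeR adjusted p = 0.0585) and kept without each of the other 11 libraries. Slc25a17 followed at -0.70 ± 0.20 (edgeR adjusted p = 0.0646), then Slc25a16 at -0.66 ± 0.23 (0.115) and Slc25a38 at -0.90 ± 0.35 (0.157). The member median was -0.26, against -0.01 for all genes, and 21 of 31 values were negative.

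**Figure D5:**
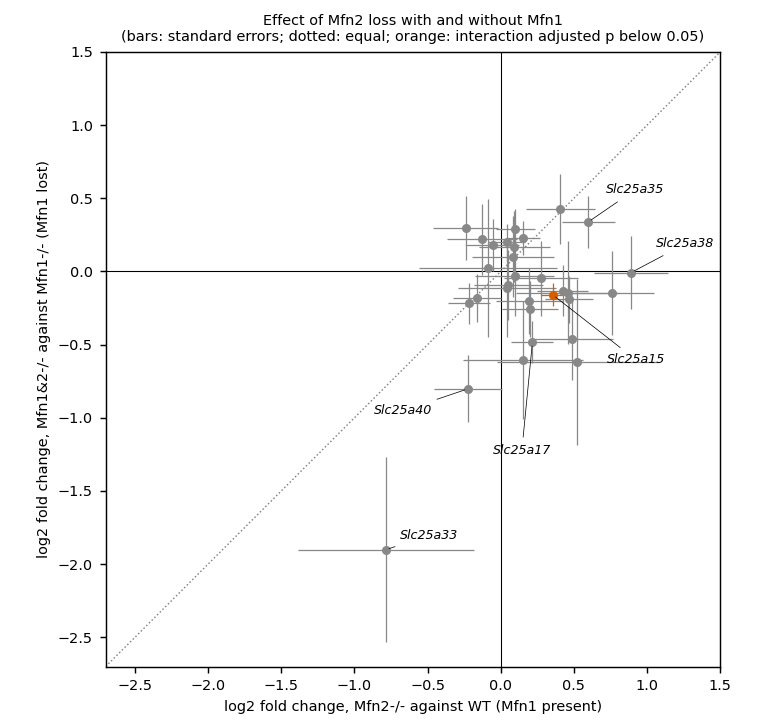
Log2 fold change of the 31 Slc25 transcripts on loss of Mfn2 where Mfn1 is present (horizontal) and where it is lost (vertical), with standard errors; the dotted line marks equal effects. Slc25a15, in orange, is the only carrier whose effects differed at an adjusted p of 0.05; Slc25a33 is lower in both and 20 of 31 points lie in quadrants of opposite sign.

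Among listed genes without an Slc25a name, 1 other mitochondrial transporter passed the test and no gene of the carriers' import route did. The 15 measured transporters of this kind included porins, sideroflexins and the pyruvate carrier subunits. Against WT, edgeR called 0 of them in Mfn1-/-, 1 in Mfn2-/- and 0 in Mfn1&2-/-. The shares of all genes called were 0.228%, 11.4% and 4.21%, and the medians of the 15 were -0.09, 0.04 and -0.06. The call was Abcb8, an ABC transporter of the inner membrane, which rose from 36.5 ± 6.27 CPM in WT to 59.2 ± 3.13 CPM in Mfn2-/- (0.70 ± 0.17; edgeR adjusted p = 0.0144). It stood at 38.1 ± 3.89 CPM in Mfn1&2-/-, lower than in Mfn2-/- (-0.64 ± 0.17; edgeR adjusted p = 0.0246). Mpc2, a subunit of the pyruvate carrier, stood at 0.95 ± 0.31 in Mfn2-/- (edgeR adjusted p = 0.0633), and Ucp2, an uncoupling protein, at -2.42 ± 0.90 (edgeR adjusted p = 0.0959), with its highest pool, at 14.9 CPM, in WT replicate 3. Of 10 measured genes that bring carriers to the inner membrane, edgeR called 0 in each of the 6 comparisons. Over all genes the shares called there were 0.228% to 11.4%. The receptor Tomm70a (0.53 ± 0.24 in Mfn1-/-; edgeR adjusted p = 0.359) was the only one of the 10 with an unadjusted p below 0.05 in any of them. Over all genes, 12.8% to 26% had such a p per comparison.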

How the data were processed

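Per the labels' protocols, a low-input SMARTer kit that keeps strand gave 12 total RNA libraries, read as pairs of 100 bp. Per the submitters' processing notes, the authors used FastQC 0.11.7, STAR 2.7.0a, edgeR and the mm10 build; no source used here names the counter, annotation or strand setting. The deposited counts per gene were analysed as given, and each gene exceeded 1 CPM in at least 3 libraries. The deposited signal table (scaled CPM) matched TMM-scaled CPM computed here to a relative difference of at most 5.1e-15, and nothing else was taken from it.

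TMM scaling and edgeR 4.0.16 (R 4.3.3) were used for a quasi-likelihood fit over 12 libraries, with 4 group means and 8 residual degrees of freedom. All 11385 genes passed filterByExpr. In each of 6 comparisons p-values were adjusted over all genes by the Benjamini-Hochberg method, with a call at 0.05. Standard errors are the absolute log2 fold change over the square root of F. The fit was also run on simulated data with planted changes, and no result given here rests on that run. Gene positions and exon lengths are GENCODE annotation of GRCm38. Alternatives were RLE and library-size scaling, DESeq2 1.42.0, limma-voom (limma 3.58.1), other filters, a replicate block, only the groups compared, and each library left out.

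Carriers named are those called in any comparison, the 10 highest in WT, those with the smallest p (up to 4) where fewer than 4 were called, and close relatives of called carriers; others named describe a role and were chosen after their values were seen. The values of 1 of the 31 members are not reported here singly, though counts and sums over members include it. Members, roles and lists were chosen with earlier results of these data known. 1 Mfn2-/- library was placed by its description because its title is misspelt.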

Additional observations from a re-analysis of the deposited data

Results flagged for a closer look

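The effect of Mfn2 loss on Slc25a15 differed between oocytes with and without Mfn1 by a test of the difference itself, the interaction of the losses, at -0.51 on the log2 scale (edgeR quasi-likelihood adjusted p = 0.0209, n = 3 libraries per group). The 3 Mfn2-/- pools stood at 252 to 275 CPM and the 3 Mfn1&2-/- pools at 221 to 238 CPM, against 245 to 263 CPM in Mfn1-/- and 203 to 214 CPM in WT. Without Mfn2-/- replicate 2 the value of the interaction was -0.49 and the call was lost (adjusted p = 0.0585). The lower level in Mfn1&2-/- than in Mfn1-/- was not called by itself (-0.16 ± 0.08, edgeR adjusted p = 0.265).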

How the results depend on the processing

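Counts of called carriers stayed within 1.5 times under RLE scaling and with the replicate block. The fit without a filter is identical to the one reported, since every gene passed the filter. They moved in these cases. With library size only, 2 were called in Mfn1&2-/- against Mfn1-/- (5.81% of all genes) and 2 in the interaction (3.93%). With DESeq2, 1 was called in Mfn1-/- against WT, 1 in Mfn1&2-/- against WT, 3 in Mfn1&2-/- against Mfn1-/- and 2 in the interaction, where it called 1.97%, 7.33%, 9.18% and 7.93% of all genes. With limma-voom, 2 were called in Mfn1&2-/- against Mfn1-/- (5.78%) and 2 in the interaction (4.12%). With at least 5 CPM in at least 3 libraries, 1 was called in Mfn1&2-/- against Mfn1-/- (6.48%). With only the groups compared, 1 was called in Mfn2-/- against WT (10.5%). The cause was not tested.

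Leaving out each library in turn gave 1 to 3 called carriers in Mfn2-/- against WT, 0 to 1 in Mfn1&2-/- against Mfn1-/-, 1 to 3 in Mfn1&2-/- against Mfn2-/-, 0 to 2 in the interaction, and 0 in Mfn1-/- and in Mfn1&2-/- against WT. In Mfn2-/- against WT, 1 was called without WT replicate 3 (6.41% of all genes) and without each Mfn2-/- replicate. In Mfn1&2-/- against Mfn2-/-, 3 were called without Mfn1&2-/- replicate 1 and 2 without Mfn1&2-/- replicate 3. With all libraries kept, 1 was called there, and 10.2% of all genes. In Mfn1&2-/- against Mfn1-/-, 1 was called without WT replicate 1 (5.29% of all genes), WT replicate 3 (6.05%) or Mfn1&2-/- replicate 3. In the interaction, 0 were called without Mfn2-/- replicate 2 and 2 without Mfn1&2-/- replicate 3, against 1 with all libraries kept (4.13% of all genes). The 3 highest carriers held 38.9 to 41.8% of the WT level without 1 WT library. The alternatives were run on the carriers with the 4 smallest p-values of each comparison. None of those log2 fold changes reversed: 435 values kept their side of the threshold, 19 passed it newly and 20 lost it. The 435 include the fit without a filter, which is identical to the one reported. The carriers were picked by p in these same data, so a reversal was unlikely from the start.

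With the replicate block, 2 carriers were called in Mfn2-/- against WT (Slc25a35 was lost, adjusted p = 0.0693), 1 in Mfn1&2-/- against Mfn2-/- and 1 in the interaction. The shares of all genes called were 9.5%, 8.48% and 2.42%, in that order. The labels do not say what a number shares, and same-numbered libraries of different groups correlated at -0.13 to 0.18 in their deviations from group means, with 7 of 12 libraries correlating best with their own number, so pairing was not used. Carriers with few counts, such as Slc25a10 and Slc25a33, had the widest intervals.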
